A study of Rattus norvegicus with 19 samples.

Results

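The genes described here are 8 neuronal activity genes, chosen by symbol from the deposited table: Arc, Npas4, Homer1, Plk2, Rgs2, Ptgs2, Rheb and Nrn1. All 8 were present, of 17715 gene symbols, and they were paired with 164 of 27538 transcriptionally active putative enhancers (TAPEs) and 164 of 388605 TAPE-gene pairs. A TAPE is a stretch of open chromatin outside genes with RNA reads on both strands, and each TAPE was paired with the genes that start within 1 Mb of its centre. The cultures were Sprague-Dawley neurons, with no genetic change named in the labels, from 3 brain regions (cortex, hippocampus, striatum) of embryonic day 18 rats, grown for 11 days in vitro. They received Neurobasal medium (vehicle) or potassium chloride (KCl, which depolarizes neurons) for 1 h before total RNA was sequenced without ribosomal RNA. Cortex and hippocampus contributed 3 vehicle and 3 KCl libraries each, and striatum 4 vehicle and 3 KCl libraries by their titles, 19 in all. The study's supplementary methods instead list 3 vehicle and 4 KCl files for striatum. Labels of single samples give 25 mM KCl, whereas the description of the series gives 10 mM. One library, cortex vehicle replicate 3, has a striatal tissue label under a cortical title, and was kept with cortex.

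Genes of this kind are switched on within minutes of synaptic activity, when calcium entering the neuron activates kinases that act on transcription factors already bound to DNA. Npas4 is itself a transcription factor made in response to activity, whereas the others encode proteins that act at synapses or in signalling. Arc promotes removal of AMPA receptors from the synapse, Homer1 links metabotropic glutamate receptors to postsynaptic scaffolds, and Plk2 is a kinase of synaptic down-scaling. Rgs2 speeds the shut-off of Gq signalling, Rheb is the small GTPase that activates mTORC1, Ptgs2 (COX-2) makes prostaglandin precursors, and Nrn1 (neuritin) is a membrane-anchored factor that promotes neurite growth.

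Promoter sequence is shown first as background, since factors that answer to calcium and cAMP bind short DNA motifs close to the start site. Whether such motifs have a part in the changes with KCl was not tested, and no promoter was found for Arc or Nrn1. RefSeq promoters on GRCr8, another assembly than the rn6 coordinates of the deposited table, were found for 6 of the 8 genes, and the 250 bases before each start are given 5′ to 3′ along the gene. Capitals mark TGACG, the half-site of the cAMP response element (CRE), and the E-box CACGTG, both searched on both strands, so that TGACG on the other strand reads CGTCA.
Plk2 (chr2:43702286-43702535, plus strand) and 4 other genes read as follows.
Plk2: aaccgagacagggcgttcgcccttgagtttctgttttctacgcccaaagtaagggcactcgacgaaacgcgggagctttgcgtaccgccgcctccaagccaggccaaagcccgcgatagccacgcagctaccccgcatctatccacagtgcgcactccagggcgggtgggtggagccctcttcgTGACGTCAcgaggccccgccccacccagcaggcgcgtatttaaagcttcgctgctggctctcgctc
Rheb: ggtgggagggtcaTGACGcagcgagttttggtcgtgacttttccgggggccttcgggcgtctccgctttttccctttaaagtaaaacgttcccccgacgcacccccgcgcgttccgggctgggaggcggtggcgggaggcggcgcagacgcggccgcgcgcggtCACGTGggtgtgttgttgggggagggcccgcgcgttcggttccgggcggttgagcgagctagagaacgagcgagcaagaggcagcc
Rgs2: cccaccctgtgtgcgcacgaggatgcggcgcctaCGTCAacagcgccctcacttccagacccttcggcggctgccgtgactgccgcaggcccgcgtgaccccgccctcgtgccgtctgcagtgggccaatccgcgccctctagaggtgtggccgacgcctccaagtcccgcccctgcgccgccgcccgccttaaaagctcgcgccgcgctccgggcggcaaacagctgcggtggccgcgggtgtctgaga
Ptgs2: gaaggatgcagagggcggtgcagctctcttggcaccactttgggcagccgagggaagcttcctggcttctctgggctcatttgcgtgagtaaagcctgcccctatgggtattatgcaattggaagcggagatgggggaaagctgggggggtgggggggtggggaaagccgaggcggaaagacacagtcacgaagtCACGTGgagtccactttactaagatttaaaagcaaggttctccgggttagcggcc
Npas4: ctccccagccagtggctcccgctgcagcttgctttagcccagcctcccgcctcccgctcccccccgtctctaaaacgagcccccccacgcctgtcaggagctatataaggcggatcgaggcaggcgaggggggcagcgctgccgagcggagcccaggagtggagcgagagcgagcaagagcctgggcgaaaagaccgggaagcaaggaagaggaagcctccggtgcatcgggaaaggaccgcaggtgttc
The others lie at chr4:11013133-11013382 (plus strand), chr13:58352667-58352916 (minus strand), chr13:64713813-64714062 (plus strand) and chr1:211716103-211716352 (minus strand). The whole CRE, TGACGTCA, occurred in Plk2 alone among the 6, starting 66 bases before the transcription start, and in 1.59% of 33469 rat promoters of the same length. It contains 2 overlapping half-sites, one on each strand. Single half-sites occurred in Rgs2 (216 bases before the start) and Rheb (237 bases), against 18.2% of all promoters with at least one. The E-box occurred in Ptgs2 (55 bases) and Rheb (86 bases), against 5.59% of all promoters. None of the 6 windows, Homer1 included, held the AP-1 site TGANTCA (6.34% of all promoters), a CArG box (1.5%) or a MEF2 site (2.96%). A match of letters is no measure of binding, and a missing one says only that these letters are not in these 250 bases.

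The first comparison asked how depolarization changed RNA of the genes themselves in each region. The table gives no gene values, but each gene's profile over the 19 libraries could be solved from its deposited correlations with TAPEs, in standard deviation (SD) units of that gene around its own mean. Such a profile has no absolute scale: it gives directions, and within a gene the ratio of one region's change to another's, but no fold change and no comparison of levels between genes. In bulk cultures, fewer cells of a type and less RNA per cell cannot be told apart. Profiles were solved for 16799 of 17715 genes (94.8%), including all 8. The genes Arc, Npas4, Homer1, Plk2, Rgs2, Ptgs2 and Rheb were higher in each KCl library than in each vehicle library of the same region, in all 3 regions, and Nrn1 was so in cortex and hippocampus only. Among all solved genes, groups did not overlap in this direction in 7.7% for cortex, 7.79% for hippocampus and 7.42% for striatum, and for 377 genes (2.24%) in all 3 regions together.

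**Figure D1:**
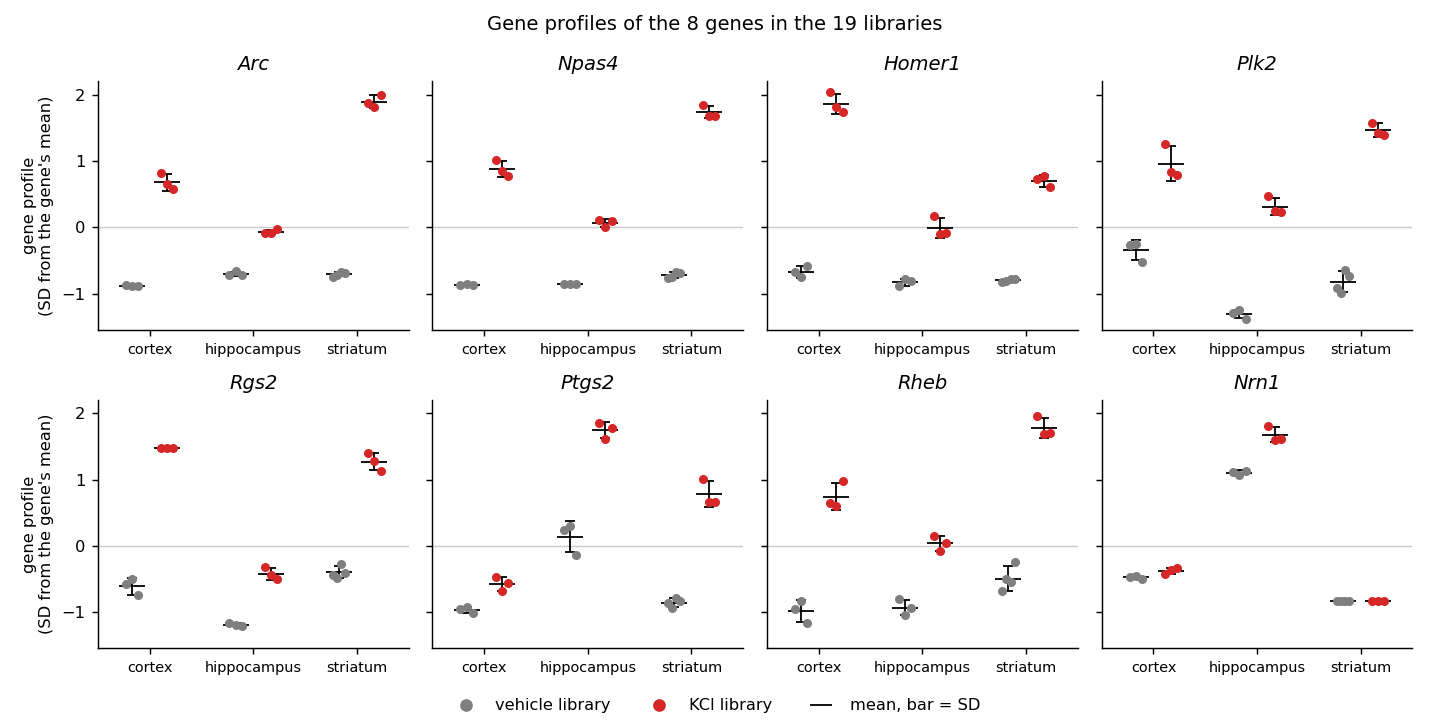
Solved gene profiles of the 8 genes, in SD units of each gene (vertical axis), by region and treatment (horizontal axis), with 1 point per library and group means with SD bars. KCl points lie above vehicle points in all regions for every gene but Nrn1, whose striatum values of -0.830 to -0.825 SD overlap.

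Npas4 (chr1:220261008-220265772 on rn6, minus strand), the activity-dependent transcription factor, stood at -0.871, -0.857 and -0.875 SD in the 3 cortex vehicle libraries and at 1.01, 0.849 and 0.770 SD with KCl. In hippocampus it was -0.855, -0.859 and -0.859 SD with vehicle and 0.106, 0.00043 and 0.0926 SD with KCl. In striatum it was -0.763, -0.747, -0.672 and -0.695 SD with vehicle and 1.85, 1.69 and 1.69 SD with KCl. Vehicle libraries of all 3 regions lay close together, and KCl libraries formed 3 separate tiers with striatum at the top and hippocampus at the bottom. The increase was 1.74 ± 0.0713 SD in cortex, 0.924 ± 0.0331 in hippocampus and 2.46 ± 0.0578 in striatum (± SE of the difference).

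Arc (chr7:115907097-115910541, minus strand) had a like order. Its cortex libraries read -0.872, -0.876 and -0.880 SD with vehicle and 0.818, 0.650 and 0.574 SD with KCl. Hippocampal libraries read -0.716, -0.661 and -0.713 SD with vehicle and -0.0824, -0.0846 and -0.0293 SD with KCl, and striatal libraries -0.742, -0.721, -0.667 and -0.687 SD with vehicle and 1.88, 1.81 and 1.997 SD with KCl. Hippocampal KCl values were higher than all vehicle values yet remained below the gene's mean over the 19 libraries. The striatal increase of 2.60 ± 0.0570 SD was 4.12 times the hippocampal one of 0.632 ± 0.0254 SD and 1.67 times the cortical one of 1.56 ± 0.0722 SD.

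Homer1 (chr2:22909569-23009678, plus strand) differed in that cortex led. Its cortex libraries were at -0.675, -0.754 and -0.585 SD with vehicle and 2.04, 1.81 and 1.74 SD with KCl. Hippocampal libraries were at -0.885, -0.782 and -0.812 SD with vehicle and 0.170, -0.101 and -0.0915 SD with KCl, and striatal ones at -0.829, -0.812, -0.777 and -0.778 SD with vehicle and 0.735, 0.780 and 0.607 SD with KCl. All cortex KCl libraries exceeded all striatal KCl libraries, which in turn exceeded all hippocampal ones. The increases were 2.53 ± 0.102, 1.51 ± 0.0535 and 0.819 ± 0.0939 SD in that order.

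Rgs2 (chr13:60846308-60849094, minus strand), the regulator of Gq signalling, also rose most in cortex. Cortex libraries read -0.580, -0.504 and -0.747 SD with vehicle and 1.47, 1.48 and 1.47 SD with KCl. In hippocampus the values were -1.16, -1.20 and -1.20 SD with vehicle and -0.324, -0.434 and -0.504 SD with KCl, and in striatum -0.440, -0.484, -0.270 and -0.401 SD with vehicle and 1.40, 1.28 and 1.14 SD with KCl. Hippocampal KCl libraries therefore overlapped the striatal vehicle range while remaining above their own vehicle group. Its increase was 2.09 ± 0.0717 SD in cortex, 1.67 ± 0.0890 in striatum and 0.765 ± 0.0544 in hippocampus.

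Plk2 (chr2:41911131-41916901, plus strand), the polo-like kinase, showed the least unequal increases of the genes that rose in all regions. Cortex libraries were at -0.272, -0.246 and -0.521 SD with vehicle and 1.26, 0.839 and 0.786 SD with KCl. Hippocampal libraries were at -1.29, -1.25 and -1.38 SD with vehicle and 0.467, 0.245 and 0.230 SD with KCl, and striatal libraries at -0.919, -0.984, -0.649 and -0.727 SD with vehicle and 1.58, 1.43 and 1.39 SD with KCl. Treatment groups were apart in each region, and striatal KCl libraries were the highest of all. Increases were 1.31 ± 0.175 SD in cortex, 1.62 ± 0.0853 in hippocampus and 2.29 ± 0.0985 in striatum, so the largest was 1.75 times the smallest.

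Rheb (chr4:6827429-6873383, plus strand), the GTPase upstream of mTORC1, followed the order of Arc and Npas4. Its cortex values were -0.954, -0.828 and -1.17 SD with vehicle and 0.647, 0.609 and 0.974 SD with KCl. Hippocampal values were -0.807, -1.04 and -0.939 SD with vehicle and 0.150, -0.0740 and 0.0440 SD with KCl, and striatal values -0.683, -0.497, -0.542 and -0.245 SD with vehicle and 1.96, 1.70 and 1.70 SD with KCl. The spread among vehicle libraries was wider than for Arc, and each KCl group lay above its vehicle group. Increases were 1.73 ± 0.152 SD in cortex, 0.969 ± 0.0938 in hippocampus and 2.28 ± 0.126 in striatum.

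Ptgs2 (chr13:67351087-67359335, plus strand), the inducible cyclooxygenase, was low in cortex under both treatments. Cortex libraries were at -0.953, -0.918 and -1.01 SD with vehicle and -0.472, -0.680 and -0.558 SD with KCl. Hippocampal libraries were at 0.247, 0.295 and -0.131 SD with vehicle and 1.86, 1.62 and 1.79 SD with KCl, and striatal libraries at -0.860, -0.941, -0.792 and -0.825 SD with vehicle and 1.00, 0.664 and 0.668 SD with KCl. Hippocampal vehicle libraries were above all cortex KCl libraries, and hippocampal KCl libraries were the highest. Increases of 1.62 ± 0.152 SD in hippocampus and 1.63 ± 0.117 SD in striatum stood against 0.389 ± 0.0655 SD in cortex, and the striatal one was 4.196 times the cortical one. The correlations allowed 2 close solutions for this gene, at most 0.0726 SD apart in any library, and their midpoint is given.

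Nrn1 (chr17:27925057-27969433, minus strand), the neurite growth factor, varied mainly by region. Cortex libraries were at -0.475, -0.446 and -0.502 SD with vehicle and -0.423, -0.363 and -0.336 SD with KCl. The value of -0.502 SD is that of cortex vehicle replicate 3, whose tissue label is striatal, and it lay outside the range of the striatal libraries. Hippocampal libraries were at 1.12, 1.07 and 1.14 SD with vehicle and 1.80, 1.60 and 1.62 SD with KCl, and striatal libraries at -0.829, -0.830, -0.825 and -0.826 SD with vehicle and -0.829, -0.826 and -0.830 SD with KCl. Striatal libraries overlapped by treatment, with a difference of -0.0010 ± 0.0016 SD, and the hippocampal difference was 0.566 ± 0.0684 SD against 0.101 ± 0.0303 SD in cortex.

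**Figure D2:**
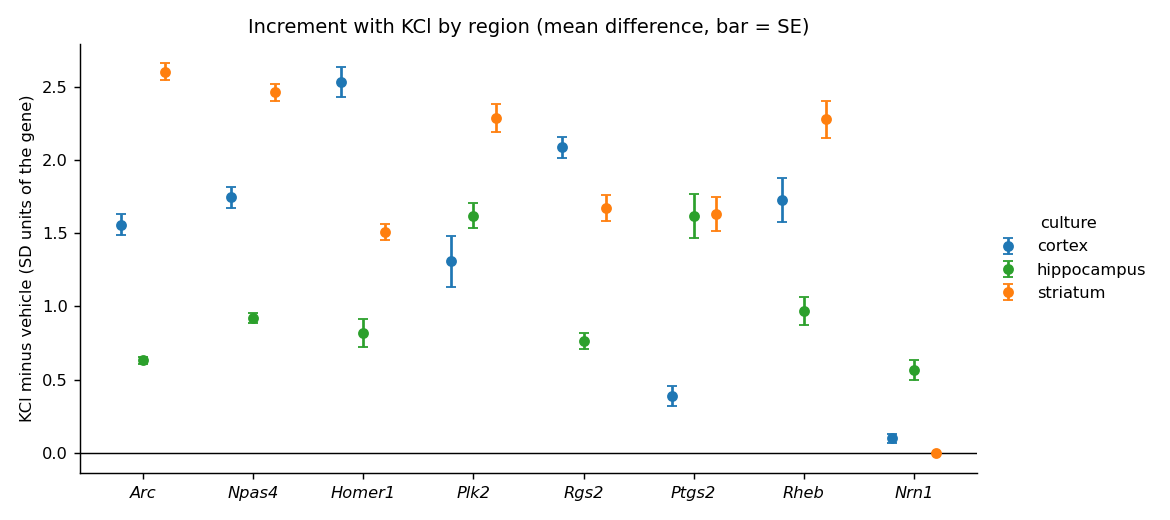
KCl minus vehicle difference of each gene's profile in SD units (vertical axis) for cortex, hippocampus and striatum, with bars for the standard error. Arc, Npas4, Plk2 and Rheb are largest in striatum and Homer1 and Rgs2 in cortex, whereas Ptgs2 is near 1.6 SD in both hippocampus and striatum, and Nrn1 is close to 0 SD in striatum.

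Averaged over the 3 regions, all 8 genes were called higher with KCl by an exact permutation test within regions (two-sided, 14000 arrangements, Benjamini-Hochberg adjusted over 16799 genes). In that test 3462 of 16799 genes passed (20.6%), 1005 of them higher (5.98%) and 2457 lower (14.6%), and the median difference of all genes was -0.143 SD. Mean differences were 1.74 SD for Plk2, 1.71 for Npas4, 1.66 for Rheb, 1.62 for Homer1, 1.60 for Arc, 1.51 for Rgs2 and 1.21 for Ptgs2, each with an exact permutation p of 7.1e-05, the smallest this design can give, and an adjusted p of 0.00187. Nrn1 differed by 0.222 SD, with an exact permutation p of 0.00379 and an adjusted p of 0.0239. Its call was lost on ranks (adjusted p = 0.318) and without cortex vehicle replicate 3 (adjusted p = 0.0513). A limma fit of the profiles over regions did not call Nrn1 either (0.212 SD, limma adjusted p = 0.0826).

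Within single regions, limma fits of the profiles across 15244 genes were added after the data were seen. These fits draw each gene's error towards that of all genes, so it can differ from the SE printed with the increases above. For Arc in hippocampus the limma SE was 0.135 SD, against 0.0254 SD from its own libraries. In striatum 2271 genes passed (14.9%, and 4.51% in the higher direction), among them 7 of the 8, with adjusted p-values of at most 0.0011, Nrn1 being the exception (adjusted p = 0.997). In cortex 281 passed (1.84%, higher 1.57%), including Homer1 and Rgs2 (adjusted p = 0.0123 each), Npas4 (0.0146), Arc (0.0175) and Rheb (0.0202). Plk2 did not pass there (0.0529), nor did Ptgs2 (0.388) or Nrn1 (0.842). In hippocampus 203 passed (1.33%, higher 0.938%), including Plk2 (adjusted p = 0.0283), Ptgs2 (0.0308) and Npas4 (0.0485), but not Rheb (0.0592), Rgs2 (0.0713), Homer1 (0.0731), Arc (0.0906) or Nrn1 (0.124). With 1 library left out, the cortex calls were lost in 5 of 6 fits (Rheb in 6 of 6) and the hippocampus calls in 6 of 6, whereas the striatal calls held in 7 of 7. After centring each library the striatal split of all genes turned from 688 higher and 1583 lower to 1351 and 792, and Plk2 passed in cortex (adjusted p = 0.0326) and Rheb and Homer1 in hippocampus (0.0389 and 0.0427).

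Whether the size of the response depended on region was tested as an interaction across the same genes, of which 482 passed (3.16%). The profiles follow gene values that were not log-transformed, so these are differences of linear increments, not of fold changes. Equal fold changes from unequal resting levels would also give unequal increments. Of the 8 genes, 7 passed: Arc (adjusted p = 7.2e-06), Npas4 (6.4e-05), Homer1 (9.1e-05), Rgs2 (0.00051), Ptgs2 (0.0015), Rheb (0.0055) and Plk2 (0.034), and Nrn1 did not (0.073). All but Plk2 passed in each of the 19 fits with 1 library left out, and Plk2 was lost in 14 of them, with an adjusted p of up to 0.109. Over the 24 pairwise differences between regions, adjusted across all genes for each pair of regions (1.45% of genes passed for cortex and hippocampus, 2.11% for cortex and striatum, 1.94% for hippocampus and striatum), Arc rose less in cortex than in striatum (cortex minus striatum -1.05 SD, adjusted p = 0.0007) and more in cortex than in hippocampus (0.925 SD, 0.0037), and hippocampus minus striatum was -1.97 SD (4.2e-06). Npas4 had the same order, with differences of -0.716 SD (adjusted p = 0.0166, and 0.0588 without striatum KCl replicate 1), 0.820 SD (0.0103) and -1.54 SD (2.9e-05). For Homer1 the cortical increase was above the striatal one by 1.03 SD (adjusted p = 0.0026) and above the hippocampal one by 1.72 SD (7.2e-05), and striatum and hippocampus did not differ past the threshold (-0.687 SD for hippocampus minus striatum, 0.05003, but 0.0310 without cortex KCl replicate 1 and 0.0358 without hippocampus KCl replicate 1). The increase of Rgs2 was smaller in hippocampus than in cortex by 1.32 SD (adjusted p = 0.0005) and than in striatum (hippocampus minus striatum -0.906 SD, 0.0064), and cortex and striatum were not separated (0.416 SD, adjusted p = 0.288). Ptgs2 rose less in cortex than in hippocampus (-1.23 SD, adjusted p = 0.0037) or striatum (-1.24 SD, 0.0020), and the difference of -0.0164 SD between these last regions was not past the threshold (0.990). Plk2 passed only for cortex against striatum (-0.978 SD, cortex minus striatum, adjusted p = 0.0207), a call lost in 5 of 19 fits with a library left out (adjusted p of 0.0564 to 0.0678 without cortex vehicle replicate 1 or 2, cortex KCl replicate 2 or 3, or striatum KCl replicate 1), and Rheb only for hippocampus against striatum (-1.31 SD, hippocampus minus striatum, adjusted p = 0.0030).

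At rest the genes also differed between regions. All 8 passed an exact permutation F-test over the vehicle libraries (4200 arrangements), as did 10104 of 16446 genes (61.4%), so this share is high in the background too. Nrn1, Plk2 and Rgs2 had an adjusted p of 0.0022, Npas4 and Ptgs2 0.0047, Homer1 0.0150, Rheb 0.0198 and Arc 0.0256, each by the exact permutation test. The calls of Arc and Homer1 were lost without single vehicle libraries: for Arc without striatum vehicle replicate 2 (adjusted p = 0.0606) or 4 (0.0600), and for Homer1 without cortex vehicle replicate 3 (0.0514) or hippocampus vehicle replicate 1, 2 or 3 (0.0656, 0.0515 and 0.0554). On ranks of all vehicle libraries the call of Arc was lost as well (exact permutation adjusted p = 0.0581). Nrn1 was highest in hippocampus, then cortex, then striatum, and the ranges of the 3 regions were apart. Plk2 was highest in cortex and lowest in hippocampus, and Rgs2 highest in striatum and lowest in hippocampus, again with no overlap. Ptgs2 was highest in hippocampus, with striatum and cortex overlapping. Npas4 and Rheb were highest in striatum, with hippocampus and cortex overlapping, Homer1 was highest in cortex, with striatum and hippocampus overlapping, and Arc was lowest in cortex, with hippocampus and striatum overlapping. The share of all genes whose resting ranges are apart was not counted, so these orders only describe single genes.

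The 8 profiles fell along these lines when compared with each other. Over the 19 libraries, which share their treatment and region, Pearson r was 0.99 between Arc and Npas4, 0.981 between Npas4 and Rheb, 0.913 between Homer1 and Rgs2, and 0.676 between Ptgs2 and Nrn1. Ptgs2 with Rgs2 gave 0.0526 and Nrn1 with Rgs2 gave -0.481. The 3 genes outside the set with the highest r were Nr4a1 (0.987), Fosl2 (0.984) and Fosb (0.981) for Arc, Fosb (0.997), Nr4a1 (0.996) and Fos (0.989) for Npas4, and Nr4a1 (0.988), Fosb (0.984) and Fosl2 (0.976) for Rheb. Nr4a1 is an orphan nuclear receptor and the Fos proteins are subunits of AP-1. Homer1 was most like Btg2 (0.974), LOC100909712 (0.972) and Crem (0.969), the last encoding cAMP-responsive regulators. Closest to Rgs2 were Btaf1 (0.982), Arih1 (0.966) and Cyr61 (0.956), and closest to Plk2 were Arf4 (0.958), Pithd1 (0.957) and Fos (0.953). Ptgs2 was nearest to Enc1 (0.941), Dusp4 (0.909) and Hspa4 (0.907), and Nrn1 to Akap13 (0.995), S1pr3 (0.994) and Syt13 (0.993).

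Other groups of genes were read beside the 8, in the same permutation test over regions, where 5.98% of all genes were higher and 14.6% lower. Of 40 rapidly induced activity genes, such as Fos, Egr1 and Bdnf, 39 were solved, 37 were called higher and 0 lower, with a median difference of 1.64 SD. This list was written with earlier results of these data known, so its count is no independent test. The pair not called were Inhba (-0.029 SD, adjusted p = 0.842) and Rrad (0.0107 SD, adjusted p = 1), by the exact permutation test. Of 42 partners and relatives of the 8 genes, 39 were solved, 3 were higher and 8 lower, with a median of -0.109 SD, against -0.143 SD for all genes. Read against the shares of all genes, these counts are no result about the list, and the members named next are given as single values. The higher ones were Plk3, a relative of Plk2 (1.10 SD, exact permutation adjusted p = 0.00187), the NMDA receptor subunit Grin1 (0.839 SD, 0.0060) and Rgs4, a relative of Rgs2 (0.711 SD, 0.0196). Lower ones included Arnt, a dimer partner of bHLH-PAS factors (fell by 1.27 SD, exact permutation adjusted p = 0.0312), Gnaq, the Gq subunit that Rgs2 acts on (0.0137, -0.727 SD), Homer2 (0.0297, -0.661 SD) and the AMPA receptor subunit Gria1 (0.0042, -0.359 SD). Npas2, Dnm2 and Sh3gl3 were also lower.

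Cell type markers were compared with the labelled regions. Of 8 markers of striatal medium spiny neurons, 7 were highest in striatum, of 5 interneuron markers 5 were, 4 of 5 cortical glutamatergic markers were highest in cortex, and 3 of 3 solved hippocampal markers in hippocampus. Tac1 (1.43 SD), Penk (0.452 SD) and Drd1 (0.367 SD) of the medium spiny list, and Gad1 (0.142 SD) and Gad2 (0.0680 SD) of the interneuron list, were called higher with KCl, and the cortical Emx1 was called lower (-0.267 SD). None of the 6 astrocyte, 7 oligodendrocyte lineage, 5 microglia and 2 solved endothelial markers was called. Profiles have no scale, so a summed marker level could not be given, and the part of cell composition in the changes of the 8 genes was not tested.

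The second comparison asked whether RNA from TAPEs around the 8 genes moved with KCl. TAPE levels are given as CPKM, the reads per kilobase of TAPE and per M reads of the library. Library totals were 46.4 to 72.5 M reads, so that 1 read in a TAPE of 1 kb was worth 0.0138 to 0.0216 CPKM. The median TAPE of the 164 held 16 reads over all 19 libraries together, against 14 for all TAPEs, and mates of a pair were mostly counted as separate reads. TAPE reads made up 0.103 to 0.124% of a vehicle library and 0.0932 to 0.105% of a KCl library. Only the 23 TAPEs with a mean of at least 0.05 CPKM were tested, of 1870 in the whole table: 8 near Plk2, 7 near Npas4, 3 each near Arc and Rheb, 1 each near Rgs2 and Nrn1, and 0 near Homer1 and Ptgs2. The rest were below this level and were not tested, apart from a fit with no filter over 27538 TAPEs, which called 55 over regions.

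**Figure D3:**
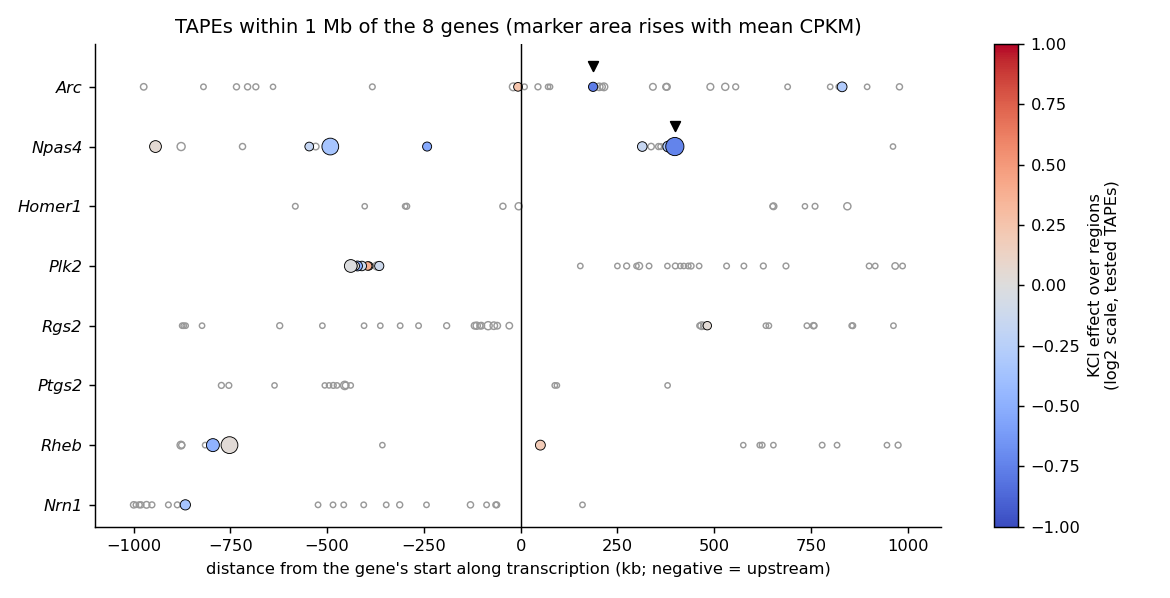
The 164 TAPEs around the 8 gene starts, placed by their distance in kb (horizontal axis, positive along the direction of transcription), with 1 row per gene and a marker area that rises with mean CPKM. Colour gives the log2 change with KCl over regions for the 23 tested TAPEs, open grey circles mark those not tested, and black triangles mark the 2 called, both lower, near Arc and Npas4.

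TAPE density and position differed between the genes. Rgs2 had 31 TAPEs (19 upstream and 12 downstream of its start), Plk2 30 (9 and 21), Arc 29 (9 and 20), Nrn1 21 (20 and 1), Rheb 15 (6 and 9), Npas4 14 (7 and 7), Ptgs2 13 (10 and 3) and Homer1 11 (6 and 5). Within 100 kb lay 6 for Arc, 4 for Rgs2, 3 for Nrn1, 2 each for Homer1 and Ptgs2, 1 for Rheb and 0 for Npas4 and Plk2. Genes were crowded around Npas4, where a TAPE was paired with 62 to 95 genes, and sparse around Plk2, with 3 to 6.

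No TAPE of the 23 was called higher with KCl in any region or over the regions, and 2 were called lower over the 3 regions, where 128 of 1870 TAPEs passed (6.84%, with 5.19% lower and 1.66% higher, or 31 higher and 97 lower). After centring each library on its median this split was 47 higher and 37 lower, and both TAPEs were still called (adjusted p = 0.0375 near Arc and 0.0190 near Npas4). Of the 23, 7 had a positive and 16 a negative log2 change over regions, with a median of -0.12, against -0.13 for all tested TAPEs, and 6 had an unadjusted limma p under 0.05 (23.6% of all tested). In the fits of single regions 0 of the 23 passed in cortex, hippocampus or striatum, where 0.321%, 0.0535% and 1.23% of all tested TAPEs passed. At an unadjusted limma p under 0.05 these counts were 2, 6 and 4, against 10.4%, 13.3% and 15.1% of all tested. For the interaction of KCl with region it was 0 of 23 (5 at an unadjusted limma p under 0.05, against 8.24%), with 0.0535% of all tested TAPEs passing. Levels depended on region in 7 of the 23 TAPEs, against 48.8% of all tested.

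The TAPE nearest to Arc lay 6.66 kb upstream (chr7:115916185-115918215 on rn6) and held 128 reads. Its CPKM was 0, 0.0136 and 0.0146 in cortex vehicle and 0.0106, 0.0663 and 0.0576 in cortex KCl libraries. Hippocampal values were 0.0610, 0.0339 and 0.0714 with vehicle and 0, 0.0695 and 0.0410 with KCl, and striatal values 0.0173, 0.119, 0.0765 and 0.111 with vehicle and 0.158, 0.0908 and 0.113 with KCl. Treatment groups overlapped in each region, and striatum was the highest region in the mean. The log2 change was 0.63 ± 0.32 in cortex (SE, limma adjusted p = 0.503), -0.35 ± 0.36 in hippocampus (0.706) and 0.45 ± 0.36 in striatum (0.589), and 0.25 ± 0.21 over regions (0.517). Region dependence passed (adjusted p = 0.0111), with means of 0.0271 ± 0.0276 CPKM in cortex (SD, n = 6), 0.0461 ± 0.0272 in hippocampus (n = 6) and 0.0979 ± 0.0437 in striatum (n = 7). The deposited correlation with Arc over all libraries was 0.490, the second of 26 genes paired with this TAPE, after Ptp4a3 (0.508).

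The TAPE near Arc that was called lower lay 187 kb downstream (chr7:115721998-115724479) and held 189 reads. Its CPKM in cortex was 0.123, 0.05 and 0.0718 with vehicle and 0.0260, 0.0136 and 0.0471 with KCl, and these groups did not overlap. Hippocampal libraries gave 0.121, 0.0347 and 0.102 with vehicle and 0.00705, 0.0426 and 0.0336 with KCl, and striatal libraries 0.106, 0.106, 0.104 and 0.181 with vehicle and 0.0533, 0.0446 and 0.0463 with KCl. Groups overlapped in hippocampus only, by 1 vehicle library. The log2 change was -0.77 ± 0.18 over regions (limma adjusted p = 0.0069), with -0.72, -0.77 and -0.81 for cortex, hippocampus and striatum, none of which passed alone (adjusted p = 0.472, 0.390 and 0.215), and the interaction did not pass either (0.997). The call held in 19 of 19 fits with a library left out and was lost with no filter on low TAPEs (adjusted p = 0.0879). Its correlation with Arc was -0.513, the lowest of 24 genes.

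Around Npas4 the nearest TAPE was 242 kb upstream (chr1:220506413-220508214, 132 reads), and its log2 change of -0.53 ± 0.21 over regions was not called (limma adjusted p = 0.106). Over its 7 tested TAPEs the log2 change ran from -0.73 to 0.05, with 6 below 0. The called one lay 399 kb downstream (chr1:219866328-219868137), 3.31 kb from the start of Rce1, and held 715 reads. Its CPKM in hippocampus was 0.401, 0.676 and 0.490 with vehicle and 0.184, 0.175 and 0.120 with KCl, with no overlap. In cortex it was 0.470, 0.267 and 0.451 with vehicle and 0.298, 0.325 and 0.307 with KCl, and in striatum 0.496, 0.512, 0.305 and 0.468 with vehicle and 0.2504, 0.377 and 0.254 with KCl, and in both regions the groups overlapped. Over regions the log2 change was -0.73 ± 0.16 (limma adjusted p = 0.0043). It was -1.44 ± 0.23 in hippocampus, where it did not pass (adjusted p = 0.154), though it did with a filter at 0.1 CPKM (0.0230), after centring the libraries (0.0257) and in one fit of all 6 groups (0.0024). Changes in cortex (-0.27) and striatum (-0.52) were smaller, but the difference between regions was not called (limma adjusted p = 0.411 for the interaction). The call over regions held in 19 of 19 fits with a library left out.

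**Figure D4:**
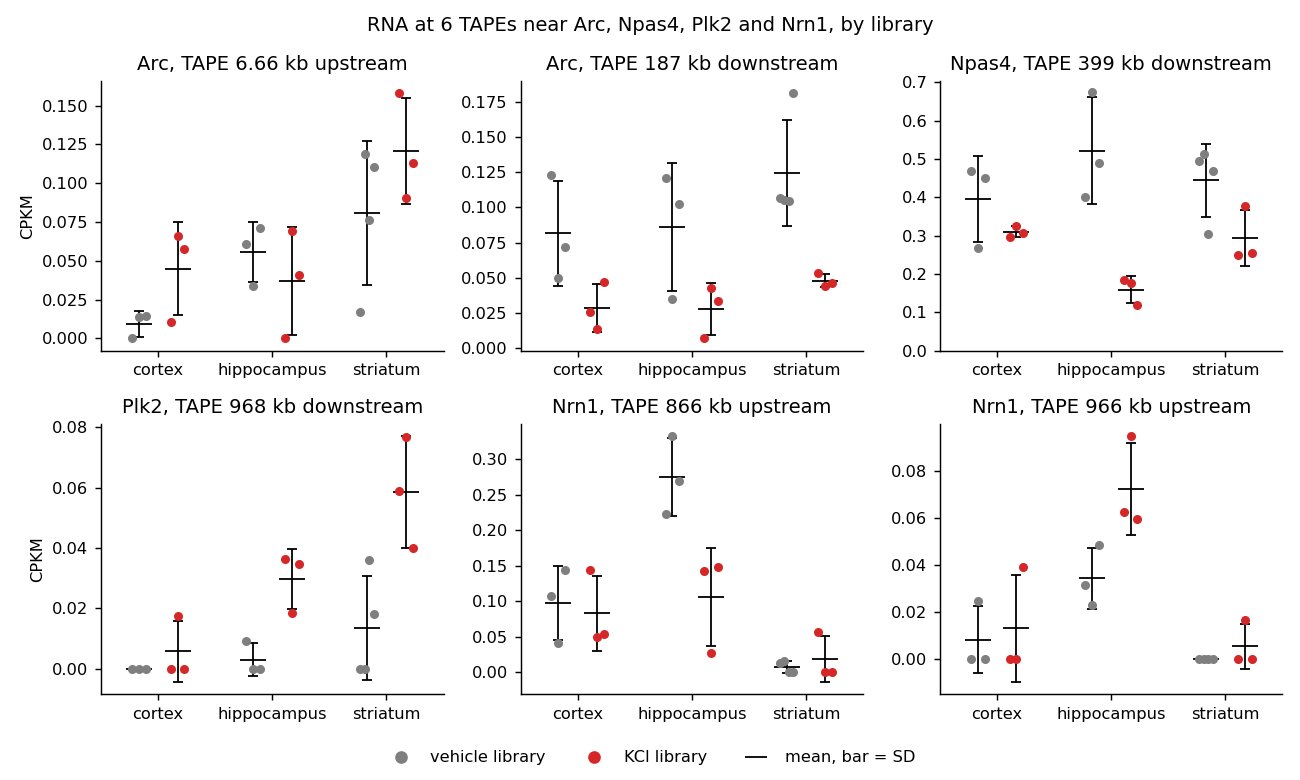
CPKM (vertical axis) of 6 named TAPEs near Arc, Npas4, Plk2 and Nrn1 by region and treatment (horizontal axis), with 1 point per library and group means with SD bars. Treatment groups at the TAPE 399 kb downstream of Npas4 are apart in hippocampus only, and the TAPE 187 kb downstream of Arc is lower in the mean of all 3 regions.

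Near the other genes no TAPE was called for KCl. For Plk2, the nearest TAPE (154 kb downstream) held 10 reads. Its 8 tested TAPEs lay together 365 to 439 kb upstream, with log2 changes of -0.49 to 0.38 over regions. The tested one with the smallest p, 421 kb upstream (chr2:41489100-41490631, 145 reads), changed by -0.49 ± 0.19 over regions (limma adjusted p = 0.0992, and 0.0469 without cortex vehicle replicate 1). A TAPE 968 kb downstream (chr2:42877877-42879797), with 37 reads, was most correlated with Plk2 (r = 0.614), and Plk2 was the best of its 4 genes. Its reads numbered 0 and 2 in cortex, 1 and 10 in hippocampus and 6 and 18 in striatum, with vehicle and KCl in that order. Both cortex reads came from cortex KCl replicate 2, and the mean of this TAPE was below the level for testing. It was named for its correlation with a gene that rose with KCl, so these counts are no separate evidence of a rise. The Rheb TAPE 51.1 kb downstream (chr4:6876960-6880129, 292 reads) changed by 0.20 ± 0.20 (limma adjusted p = 0.601), and the one 795 kb upstream (chr4:6031244-6033737, 471 reads) by -0.48 ± 0.21 (0.143).

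Near Homer1 and Rgs2, single TAPEs held few reads. The Homer1 TAPE 4.89 kb upstream (chr2:22904042-22905309) held 39 reads, 8 and 9 in cortex, 8 and 8 in hippocampus and 2 and 4 in striatum with vehicle and KCl. The Rgs2 TAPE 29.2 kb upstream held 49 reads, and the one with the highest correlation, 113 kb upstream (chr13:60961302-60963519, 76 reads), had 30 in cortex vehicle and 35 in cortex KCl libraries. Rgs2 was only sixth of 9 genes for this TAPE, whose best gene was Rgs13 (0.873 against 0.440). The single tested Rgs2 TAPE, 482 kb downstream (chr13:60365934-60367490), had a log2 change of 0.04 ± 0.22 over regions (limma adjusted p = 0.941) and was higher in striatum (0.101 ± 0.0385 CPKM, SD, n = 7) than in cortex (0.0271 ± 0.0336, n = 6) or hippocampus (0.0225 ± 0.0246, n = 6), with an adjusted limma p of 0.0011 for region.

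The Nrn1 and Ptgs2 loci held the TAPEs with the highest correlations, and both genes are highest in hippocampus. The TAPE 966 kb upstream of Nrn1 (chr17:28934728-28936962, 53 reads) had a correlation of 0.863 with Nrn1, the best of its 8 genes, and most of its reads were hippocampal, 13 with vehicle and 28 with KCl. The one 866 kb upstream (chr17:28834868-28836215, 138 reads) had a correlation of 0.643 over all libraries but of -0.619, -0.802 and -0.487 within cortex, hippocampus and striatum. Its hippocampal CPKM was 0.223, 0.332 and 0.269 with vehicle and 0.143, 0.0262 and 0.148 with KCl. Those groups did not overlap, but the log2 change of -1.17 ± 0.38 was not called (limma adjusted p = 0.303). Its sign was opposite to that of Nrn1, which was not called in hippocampus either (limma adjusted p = 0.124). The level of this TAPE depended on region (limma adjusted p = 1.6e-05). For Ptgs2, the TAPE 773 kb upstream (chr13:66577348-66578877, 17 reads) had a correlation of 0.697 and 4 vehicle and 11 KCl reads in hippocampus, and its best gene was Pla2g4a (0.746). These global correlations over 19 libraries combine the difference between regions with that between treatments. The TAPEs 966 kb from Nrn1 and 773 kb from Ptgs2 were named for these correlations. Their read counts are therefore no separate evidence of a change with KCl.

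Deposited correlations over the whole set were near those of all pairs. Of the 164 pairs, 6 had r over 0.5 (3.66%, against 5.3% of all pairs): 3 for Nrn1, 2 for Ptgs2 and 1 for Plk2. Arc and Npas4 had 2 each of the 4 pairs under -0.5 (2.44%, against 2.68%). One of the Arc pairs lay 18.9 kb upstream (r = -0.588). The paired gene was the best-correlated of its TAPE in 17 pairs (10.4%, against 7.11%). Median r was 0.097 for 18 pairs within 100 kb, -0.0024 for 71 pairs at 100 to 500 kb and 0.0469 for 75 farther pairs.

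**Figure D5:**
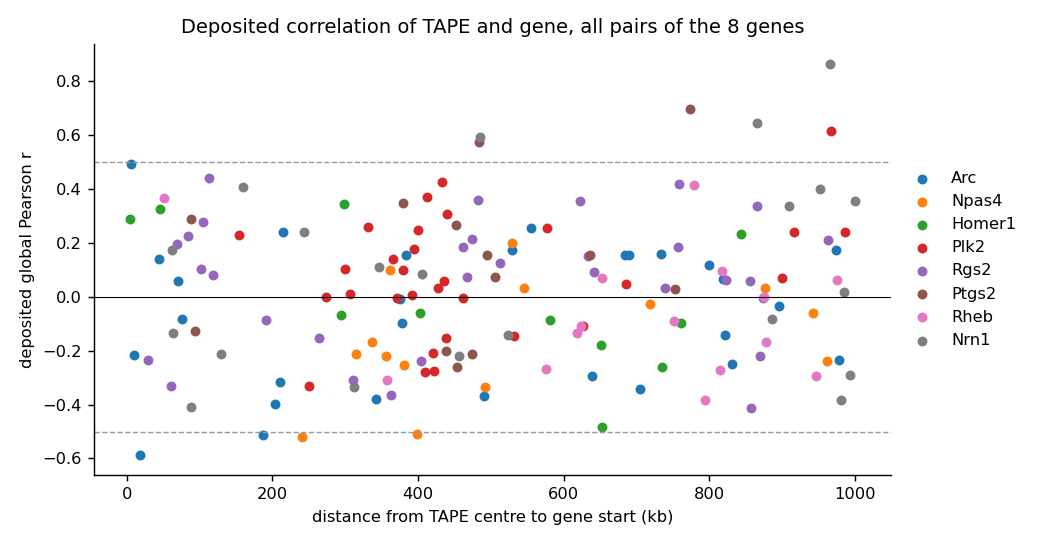
Deposited correlation of TAPE and gene over 19 libraries (vertical axis) against the distance in kb (horizontal axis) for the 164 pairs, by gene. The 6 pairs above 0.5 belong to Nrn1, Ptgs2 and Plk2, and the 4 below -0.5 to Arc and Npas4.

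Single TAPEs hold few reads, so TAPE reads were also summed around each gene. Within 100 kb, 3 of the 8 genes had enough reads (4350 genes tested and 530 called, 12.2%, with 122 higher and 408 lower, or 174 and 145 after centring), and the sum changed by log2 -0.14 ± 0.26 for Arc (limma adjusted p = 0.776), -0.39 for Rgs2 (0.267) and 0.27 for Rheb (0.492). Within 1 Mb, where 4240 of 17077 genes passed (24.8%, with 22.3% lower) and the median change was -0.19, Arc was lower by log2 -0.61 ± 0.13 (adjusted p = 0.0003) and Npas4 by -0.43 ± 0.10 (0.00074). In the single regions 2.48%, 7.0% and 13.9% of genes passed in cortex, hippocampus and striatum, and 0.955%, 6.01% and 12.2% were lower. For Arc the change was -0.32 in cortex (limma adjusted p = 0.563), -0.87 in hippocampus (0.0149) and -0.63 in striatum (0.0099). For Npas4 it was -0.13 in cortex (limma adjusted p = 0.814), -0.82 in hippocampus (0.00016) and -0.37 in striatum (0.078). The other 6 sums changed by -0.19 to 0.08 and none passed. Read against the 22.3% of all genes that were lower, these calls are no result about the 8 genes as a set. The sums of Arc and Npas4 also contain the TAPEs called lower above, so they are no separate evidence. Both calls held in 19 of 19 fits with a library left out and after centring (adjusted p = 0.0127 and 0.0490), where the split of all genes moved from 426 higher and 3814 lower to 681 and 758. Neighbouring genes share these TAPEs, and the sum says nothing about which gene a TAPE acts on.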

How the data were processed

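Total RNA was sequenced from 19 cultures of rat cortex, hippocampus and striatum treated with vehicle or KCl. Per the labels and the study's methods, the authors trimmed reads with Trim Galore 0.4.5, aligned them with STAR to rn6, handled them with SAMtools 1.9 and FastQC, defined TAPEs from pooled open-chromatin and RNA libraries, and counted reads over each TAPE on both strands in SeqMonk and kept duplicates. The deposited values of TAPEs are in RPKM (called CPKM): reads per kilobase and per M reads of the library. The deposited correlations are a score from -1 to 1, the Pearson r of TAPE and gene values over 19 libraries or over those of 1 region, which the authors computed. Whole reads were recovered for 100% of values (within 0.01 read), and gave library totals of 46.4 to 72.5 M reads. Reads are not independent molecules, since no molecular identifiers were used.

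Gene profiles were solved from the deposited correlations with numpy 2.4.6, pandas 2.3.3 and scipy 1.17.1 in Python 3.11.15. They returned the deposited correlations within 2.3e-12 and assume that the authors matched TAPE and gene libraries in the order of the columns. Genes were tested by exact permutation within regions, and per region with limma 3.58.1 in R 4.3.3, added after the data were seen. TAPE levels were tested as log2(CPKM + 0.05) with limma, mean CPKM of at least 0.05, and sums near a gene start as log2(RPM + 0.05), mean of at least 0.1. These log2 changes understate the change of low TAPEs. All tests were two-sided or F-tests, with Benjamini-Hochberg adjustment over all features tested and a threshold of 0.05. Samples were grouped by title, and p-values measure the spread between libraries, since nothing says which came from separate animals. In limma fits the spread of each feature is drawn towards that of all features tested. The 8 genes, the lists and the tests were chosen with earlier results of these data known. For each gene, the TAPEs named are the nearest, the one with the highest correlation, any called for KCl or its interaction, and the tested one with the smallest p over regions, and 3 genes of most similar profile. The TAPE 18.9 kb upstream of Arc was named after its values were seen. Scripts were tested on simulated data. Alternatives were other pseudocounts and filters, centring, voom on recovered reads, one fit of 6 groups, ranks, a replicate block and leaving out each library. Promoters are RefSeq sequences of GRCr8, and no TAPE sequence was used. Single values of some listed genes are not reported here.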

Additional observations from a re-analysis of the deposited data

Results flagged for a closer look

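For 7 of the 8 genes the effect of KCl on the profile differed between regions in the test of the interaction itself: Arc (adjusted p = 7.2e-06), Npas4 (6.4e-05), Homer1 (9.1e-05), Rgs2 (0.00051), Ptgs2 (0.0015), Rheb (0.0055) and Plk2 (0.034), by limma over 15244 genes. The sizes in each region are given above, and the direction was the same in all 3 regions for each of the 7. They are differences of increments on a linear scale, not of fold changes.

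Striatum vehicle is the only group with 4 libraries, so it alone was checked, for the 8 gene profiles and the named TAPEs. In 5 of these 29 sets of values, 1 library stood apart from the rest. For continuous values chance sets a library apart in about 1 of 20 such sets, a rate that does not hold for sets with mostly 0 reads. All sets come from the same 4 libraries and are not independent. For the TAPE 187 kb downstream of Arc, striatum vehicle replicate 8 was at 0.181 CPKM and the gap to its nearest neighbour took 0.973 of the group's range. For the TAPEs 4.89 kb from Homer1, 113 kb from Rgs2, 88.3 kb from Ptgs2 and 779 kb from Rheb, 1 library had reads and the other three were at 0, so that the gap took 1.000 of the range by construction. These 4 TAPEs held 39, 76, 7 and 11 reads over all libraries.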

How the results depend on the processing

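The increases of Arc, Npas4, Homer1, Plk2, Rgs2, Ptgs2 and Rheb over regions kept their direction and call under ranks, the replicate block and each library left out. Counts of calls over all features moved more. For TAPEs, the count in cortex (6) was 0 with no filter, 10 centred, 12 in one fit of 6 groups and 3 with the replicate block. In hippocampus (1) it was 0 with no filter, 9 at a mean of 0.1, 4 centred, 19 in one fit and 0 with the block. In striatum (23) it was 2 with no filter, and over regions (128) it was 55 with no filter and 84 centred. For the interaction (1) it was 9 with a pseudocount of 0.25, 2 with no filter, 3 at a mean of 0.1 and 4 with voom, and for region (912) it was 2026 with no filter and 482 at a mean of 0.1. For sums within 100 kb, cortex (27) gave 0 with no filter and 424 within 1 Mb, hippocampus (67) gave 27 with a pseudocount of 0.01, 0 with no filter, 1195 within 1 Mb, 129 in one fit and 1 with the block, and striatum (159) gave 32 with no filter and 2381 within 1 Mb. Over regions (530) it gave 319 centred and 4240 within 1 Mb, and for the interaction (10) 23 with a pseudocount of 0.25 and 148 within 1 Mb. The 4240 sums within 1 Mb became 1439 when centred. Gene profile counts fell to 0 with the block in cortex (281) and hippocampus (203), which rose to 305 centred. The block leaves fewer degrees of freedom, and the cause of the fall was not tested.

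With 1 library left out, TAPE counts were 3 to 5 in cortex, 0 to 0 in hippocampus, 0 to 8 in striatum (0 without striatum KCl replicate 7), 82 to 146 over regions (82 without cortex vehicle replicate 3), 1 to 2 for the interaction and 852 to 902 for region. Sums within 100 kb gave 5 to 32 in cortex (5 without cortex vehicle replicate 2), 1 to 27 in hippocampus, 66 to 158 in striatum, 386 to 571 over regions and 3 to 11 for the interaction, and sums within 1 Mb gave 3504 to 4483. Gene profiles gave 0 to 169 in cortex, 0 to 0 in hippocampus, 1319 to 1856 in striatum, 3052 to 3771 over regions, 399 to 587 for the interaction, 159 to 266, 237 to 423 and 215 to 328 for the pairs of regions, 2954 to 3608 in the permutation test and 8341 to 9783 at rest.

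Signs turned only in values that had not been called. The Rgs2 TAPE at 482 kb was at -0.167 with a pseudocount of 0.01. The sum within 100 kb of Arc was 0.0149 centred, that of Rheb was -0.103 within 1 Mb and 0.0587 when that was centred, the 1 Mb sum of Ptgs2 was -0.0103 with a pseudocount of 0.25, and Nrn1 in striatum was 0.317 SD centred. With a library left out, the change was -0.627 to 0.0016 for the TAPE nearest to Arc in hippocampus, -0.0737 to 0.118 for the Rgs2 TAPE at 482 kb, and -0.150 to 0.0958 SD for the difference of Ptgs2 between hippocampus and striatum. For 1 Mb sums it was -0.0478 to 0.109 for Plk2, -0.144 to 0.0820 for Ptgs2 and -0.0353 to 0.211 for Nrn1.

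Replicate numbers did not pair the libraries: same-numbered libraries correlated at -0.153 to 0.063 in their deviations, none over 0.1, and striatum groups share no number. With the replicate block the permutation test called 2913 genes against 3462, Nrn1 was lost (adjusted p = 0.101), Plk2 was lost for the interaction (0.0637), Npas4 for cortex against hippocampus (0.0516) and striatum (0.0684), and the cortex and hippocampus calls of single genes were lost (0.200 to 0.243). At rest the block allows no p under 0.25 and called 0 genes, which says nothing of stability. Depth limits most TAPEs, whose median was 16 reads over 19 libraries.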
